A study of Mus musculus with 6 samples.

Results

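Integrins are the cell-surface receptors that hold epithelial cells to the extracellular matrix, and 10 of their subunit genes are described here across spheroids of the mouse colorectal carcinoma line CMT93. The members are Itga2, Itga3, Itga5, Itga6, Itga7 and Itgav, which encode alpha subunits, and Itgb1, Itgb4, Itgb5 and Itgb8, which encode beta subunits. They are 10 of the 23399 genes in the deposited count table, and all 10 were among the 14987 genes that passed the filter on low counts. They were picked with the difference between the treatments in view, so each member's difference is given below as a description with its SE and no p-value, and the count of members past the threshold supports nothing. Polyadenylated RNA was sequenced from 3 samples grown with vehicle, which is ethanol with bovine serum albumin, and 3 grown with 200 µM palmitate bound to the same albumin. Palmitate is a saturated long-chain fatty acid. Both groups are labelled wildtype, carry no transgene in the labels, and come from 1 cell line. They spent 1 week in monolayer and 5 days as spheroids on soft agar, with 0.25% Matrigel and 10% fetal bovine serum in the medium recipe of both groups. Matrigel is itself a basement membrane extract rich in laminin and collagen IV, so both groups also had integrin ligands from outside the cells.

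An integrin is a pair of 1 alpha and 1 beta subunit, and the pair sets the ligand. The beta 1 subunit joins many alpha subunits: with alpha 2 it binds collagen, with alpha 3, alpha 6 and alpha 7 it binds laminins, and with alpha 5 it binds fibronectin. The beta 4 subunit pairs with alpha 6 and anchors keratin filaments to laminin in hemidesmosomes. Alpha v joins beta 1, beta 3, beta 5, beta 6 or beta 8, and those pairs bind ligands with an Arg-Gly-Asp motif, including vitronectin, fibronectin and the latent form of TGF-beta. Message levels do not show how many pairs are formed, because pairing takes place between proteins.

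Vehicle libraries totalled 18.9 to 21.9 M counts and palmitate libraries 22.5 to 22.9 M, the latter all deeper. The edgeR common biological coefficient of variation, the spread between libraries of a group beyond counting error, was 1.28%. Samples of a group are numbered in the labels without saying if each was its own culture; a p-value here reflects library-to-library spread, possibly only technical. The labelled colorectal epithelium was checked against 8 epithelial markers, of which 7 reached 1 CPM (counts scaled to library size), with a summed level of 7216 to 7291 CPM with vehicle and 6592 to 6690 CPM with palmitate. Krt18 and Krt8 were lower with palmitate, whereas Krt19 went the other way, from 1249 ± 15.9 to 1364 ± 6.57 CPM. Epcam and Cdh1 were abundant, whereas Krt20 stayed below 1 CPM and Cdx2 was low, at 1.72 ± 0.276 and 2.46 ± 0.365 CPM (SD, n = 3). The summed markers of fibroblasts were 1.34 to 2.05 CPM with vehicle and 0.976 to 1.10 CPM with palmitate (4 of 6 with a row). Those of endothelium were 3.23 to 3.55 and 2.00 to 2.55 CPM (4 of 4). In bulk RNA, fewer cells of a kind and less message per cell cannot be told apart.

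For 7 of the 10 members a RefSeq promoter entry on build GRCm38.p6 could be matched by symbol, in 8 windows. The 250 bases before the annotated start are shown for both partners of 2 integrins, alpha 2 beta 1 and alpha v beta 5. Below, the message ratio of the first pair was apart between groups and that of the second overlapped. None of these 4 windows overlaps an annotated exon of Gencode release M21. Capitals mark GGGCGG, the GC box bound by Sp1-type factors, read on both strands. The windows are chr13:114932101-114932350 (minus strand), chr8:128685404-128685653 (plus strand), chr2:83724147-83724396 (plus strand) and chr16:33829415-33829664 (plus strand), and each is written 5′ to 3′ in the direction of its gene.
Itga2: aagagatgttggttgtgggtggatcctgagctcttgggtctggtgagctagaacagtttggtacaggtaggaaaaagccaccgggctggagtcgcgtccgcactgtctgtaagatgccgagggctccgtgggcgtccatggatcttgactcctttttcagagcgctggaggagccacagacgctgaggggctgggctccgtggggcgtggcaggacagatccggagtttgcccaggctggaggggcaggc
Itgb1: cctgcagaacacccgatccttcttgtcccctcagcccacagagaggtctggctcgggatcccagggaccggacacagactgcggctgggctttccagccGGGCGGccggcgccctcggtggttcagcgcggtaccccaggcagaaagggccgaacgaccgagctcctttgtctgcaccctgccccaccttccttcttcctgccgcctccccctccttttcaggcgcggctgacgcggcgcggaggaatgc
Itgav: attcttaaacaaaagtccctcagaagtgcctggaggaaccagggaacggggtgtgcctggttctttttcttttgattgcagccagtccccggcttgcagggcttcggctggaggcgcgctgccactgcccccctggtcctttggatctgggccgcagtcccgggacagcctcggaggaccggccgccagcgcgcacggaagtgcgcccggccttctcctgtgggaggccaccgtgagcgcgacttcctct
Itgb5: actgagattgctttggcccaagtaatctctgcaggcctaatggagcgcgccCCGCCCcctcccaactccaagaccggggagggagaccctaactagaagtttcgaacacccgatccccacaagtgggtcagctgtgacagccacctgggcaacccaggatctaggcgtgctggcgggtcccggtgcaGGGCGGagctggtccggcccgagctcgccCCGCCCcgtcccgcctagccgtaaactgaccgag
The GC box occurred 3 times before Itgb5, 1 time before Itgb1 and 0 times before Itga2 and Itgav, and 32.7% of 32851 promoter windows of this length hold it. Of all 8 member windows 5 hold it, with 1 and 3 boxes in those of Itga3, 2 before Itga5 and 0 before Itgb8. GC content was 60.8% for Itga2, 68.0% for Itgb1, 64.4% for Itgav and 65.2% for Itgb5, against a median of 52.4% over all windows. The AP-1 element TGANTCA and the cAMP response element TGACGTCA were not found in any of the 8 member windows. They occur in 6.75% and 1.55% of all windows, both strands searched. A match or its absence describes these letters only.

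Per length of exon, Itgb1 and Itga3 were by far the most abundant members, and Itgb8 and Itga7 the least. Levels between genes are given as TMM-normalised CPM per kb of merged exon, averaged over 3 libraries. With vehicle the order was Itgb1 (201), Itga3 (100.1), Itgb5 (24.4), Itgb4 (18.5), Itgav (13.8), Itga6 (13.7), Itga5 (13.1), Itga2 (2.82), Itga7 (0.0899) and Itgb8 (0.0253). Itgav and Itga6 overlapped in their library values there, and every other pair of neighbours was separate. With palmitate the order was the same except that Itga5, at 12.6, stood above Itga6, at 9.86, and no neighbours overlapped. The order in the middle depends on the length used: per kb of the longest coding transcript with vehicle, Itga6 was in place 3 at 28.8, above Itgb5 at 26.4, and Itgb4 was in place 6 at 20.9. Places 1, 2, 5, 7, 8, 9 and 10 with vehicle were the same with both lengths. With palmitate the order of Itga5 and Itga6 also turned on the length: per kb of the longest coding transcript Itga6, at 20.6, stood above Itga5, at 14.2.

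**Figure D1:**
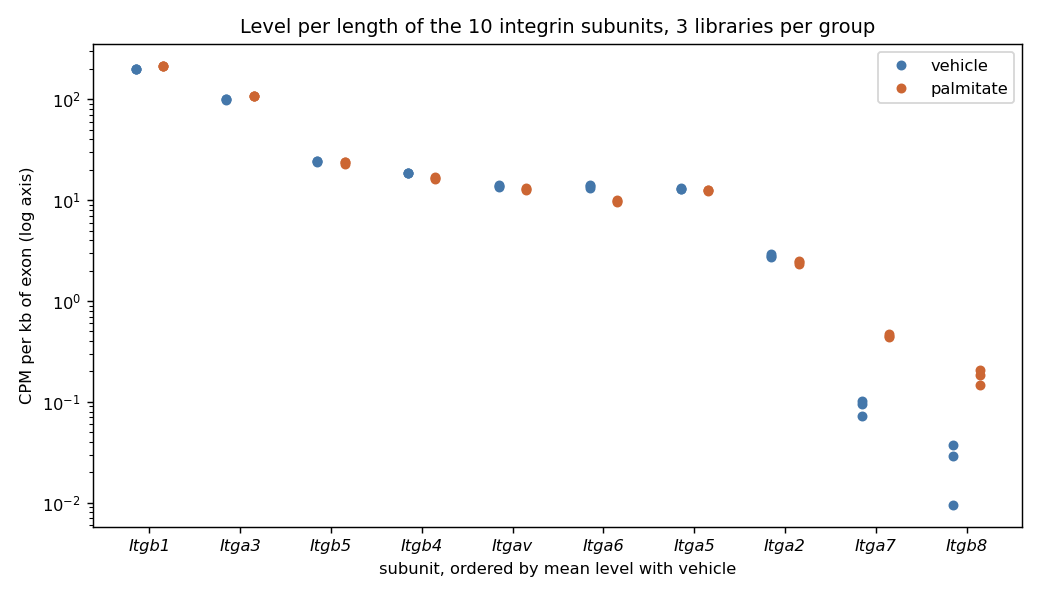
Each point is 1 library, plotted as CPM per kb of merged exon on a log axis for the 10 subunits, ordered by their vehicle mean. The levels run from 201 for Itgb1 down to 0.0253 for Itgb8 with vehicle, and palmitate libraries stand well above vehicle libraries for Itga7 and Itgb8.

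Of the 10 members, 4 were higher and 6 lower with palmitate. The groups did not overlap for any of the 10, where 57.8% of all tested genes had groups apart, 29.7% higher and 28.1% lower with palmitate. By adjusted p under 0.05 in the edgeR quasi-likelihood fit, 8 of 10 members were called, 4 higher and 4 lower, where 52.8% of all tested genes were called, 27.4% higher and 25.4% lower. The members were chosen on this comparison, so nothing is read from those counts. Their median log2 fold change was -0.05, beside 0.00068 over all tested genes, and the median size regardless of sign was 0.14 beside 0.15. So the typical member differed by little, and Itga7, Itgb8 and Itga6 differed by most.

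Itgb1 encodes the beta subunit shared by most matrix receptors of epithelium. Its level was 819, 819 and 822 CPM with vehicle and 874, 871 and 865 CPM with palmitate. All palmitate libraries were above all vehicle libraries, by a small amount, with a log2 fold change of 0.09 (SE 0.0153). Itga3, whose product with beta 1 is the main laminin receptor of many epithelia, stood at 577, 581 and 557 CPM with vehicle and 614, 614 and 622 CPM with palmitate. Its groups were likewise apart, and the log2 fold change was 0.11 (SE 0.0166). These most abundant alpha and beta members thus differed in the same direction and by similar amounts.

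Itga6 encodes the alpha subunit that serves laminin receptors with both beta 1 and beta 4. It was at 125, 120 and 128 CPM with vehicle and 89.4, 90.1 and 87.4 CPM with palmitate. Every palmitate library was lower, at 0.717 times the vehicle mean, with a log2 fold change of -0.48 (SE 0.0277), and this was the greatest deficit among the 10. Itgb4, the hemidesmosomal beta subunit with an unusually long cytoplasmic tail, was at 130.4, 129 and 129 CPM with vehicle and 116, 118 and 113 CPM with palmitate. The groups were apart, with a log2 fold change of -0.16 (SE 0.0253). Exons of Itgb4 share 7.66% of their length with a gene on the opposite strand in Gencode M21, and no source used here says whether reads were counted by strand.

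Itga2 encodes the collagen-binding partner of beta 1. It gave 375, 460 and 425 counts with vehicle and 387, 377 and 407 with palmitate, and in depth-normalised terms 19.7, 20.9 and 19.6 CPM against 17.3, 16.7 and 17.9 CPM. The raw counts overlap and the normalised values do not, since the palmitate libraries were deeper. The log2 fold change was -0.22 (SE 0.0590). Itga5, the alpha subunit of the classical fibronectin receptor, was at 64.1, 65.0 and 64.3 CPM with vehicle and 62.3, 62.3 and 61.4 CPM with palmitate. The groups were narrowly apart, with a log2 fold change of -0.06 (SE 0.0337).

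Itgav, the alpha subunit common to the Arg-Gly-Asp receptors, was at 150.5, 149.9 and 145.5 CPM with vehicle and 137, 137 and 141 CPM with palmitate. The palmitate libraries were all lower, with a log2 fold change of -0.10 (SE 0.0238). Itgav exons share 5.90% of their length with a gene on the opposite strand. Itgb5, whose product with alpha v binds vitronectin, was at 87.3, 86.8 and 85.6 CPM with vehicle and 84.3, 85.6 and 81.6 CPM with palmitate. The lowest vehicle value and the highest palmitate value nearly touched, and the log2 fold change was -0.05 (SE 0.0299).

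Itgb8 encodes a beta subunit that pairs with alpha v alone and is known for activating latent TGF-beta. It gave 2, 9 and 7 counts with vehicle and 36, 52 and 46 counts with palmitate. That is 0.105, 0.409 and 0.323 CPM against 1.61, 2.31 and 2.03 CPM, so the lowest palmitate library was well above the highest vehicle library. The summed counts were 18 with vehicle (95% exact Poisson interval 10.7 to 28.4) and 134 with palmitate (112 to 159), and these intervals cover counting error only. The mean CPM was 7.09 times higher with palmitate and the log2 fold change was 2.76 (SE 0.297), rank 2 from the top among all tested genes. Itgb8 passed the count filter only through the palmitate libraries, so a tested value for it had to be a difference. Its level per length with palmitate, 0.179, was still far below that of Itgb5, at 23.6.

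Itga7 encodes a laminin-binding partner of beta 1 best known from skeletal muscle. It gave 11, 17 and 18 counts with vehicle and 81, 81 and 86 with palmitate, or 0.579, 0.773 and 0.831 CPM against 3.62, 3.59 and 3.79 CPM. The palmitate libraries were close to each other and all far above the vehicle libraries. The mean CPM was 5.04 times higher and the log2 fold change 2.31 (SE 0.200), rank 9 from the top. Summed counts were 46 with vehicle (95% exact Poisson interval 33.7 to 61.4) and 248 with palmitate (218 to 281). Of 5 skeletal muscle markers only Des had a row, and it fell, from 2.87 ± 0.526 to 1.49 ± 0.128 CPM (SD, n = 3), opposite in direction to Itga7.

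**Figure D2:**
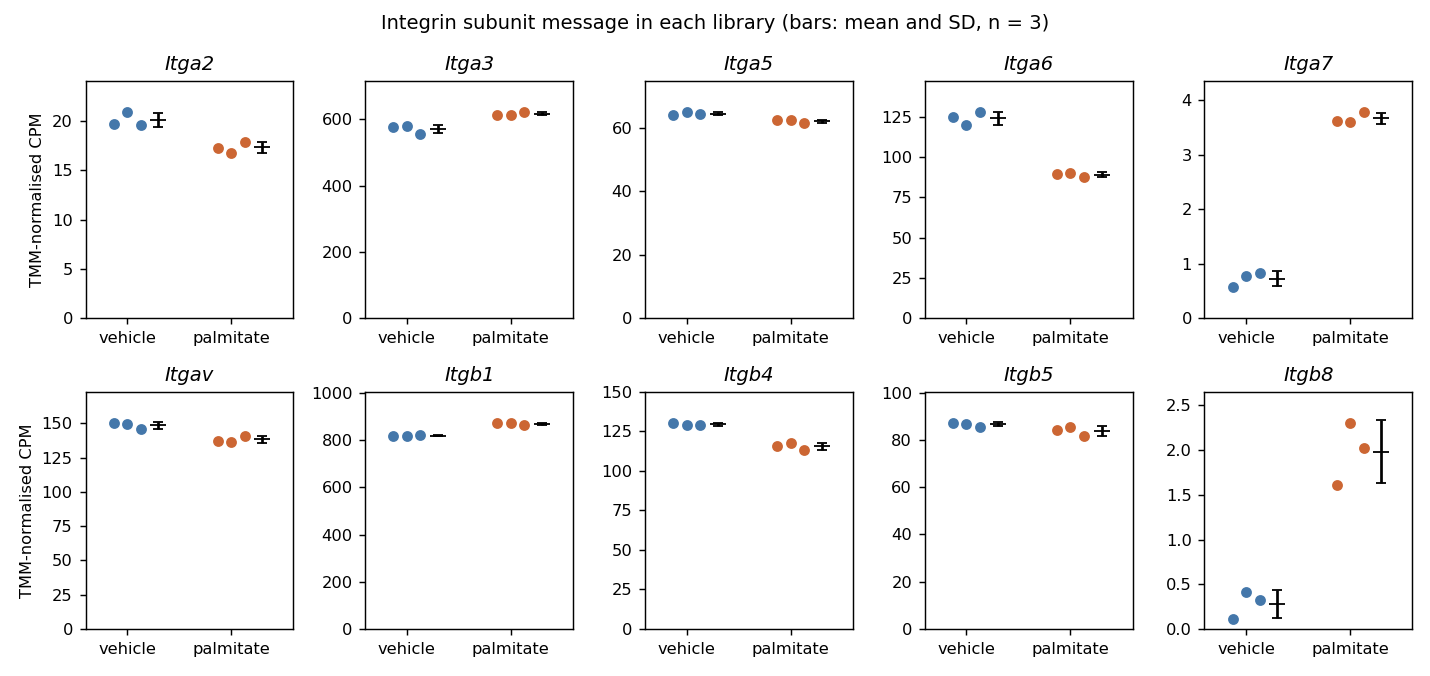
Each panel shows 1 subunit, with TMM-normalised CPM on an axis from 0, a point for each library, and the mean with SD (n = 3) beside each group. Itga7 and Itgb8 are several-fold higher with palmitate at levels under 4 CPM, Itga6 is lower by more than the spread, and the other members differ slightly.

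The authors' deposited table, made with DESeq2, gives log2 fold changes of 2.80 for Itgb8, 2.33 for Itga7, 0.11 for Itga3 and 0.09 for Itgb1. For the members that were lower, the authors' deposited table lists -0.48 for Itga6, -0.21 for Itga2, -0.16 for Itgb4, -0.10 for Itgav, -0.05 for Itga5 and -0.04 for Itgb5. It comes from the same libraries and is no independent measurement.

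The proportions between known partners followed from these values and are descriptions too. The alpha to beta message ratio of a pair was taken within each library, so it does not depend on depth or scaling. Its size depends on the length used, while its log2 change between groups does not. Per kb of exon, Itga3 stood at 0.498 ± 0.0119 of Itgb1 with vehicle and 0.507 ± 0.00650 with palmitate (SD, n = 3 libraries each), and the groups overlapped. Itga6 stood at 0.0684 ± 0.00215 of Itgb1 with vehicle and 0.0462 ± 0.000558 with palmitate, a log2 change of -0.56. Per kb of the longest coding transcript these ratios of Itga6 were 0.134 ± 0.00422 and 0.0905 ± 0.00109. So the laminin-binding alpha subunits did not keep a fixed proportion to beta 1: Itga6 was lower relative to Itgb1, Itga3 was level within the library spread, and Itga7 was higher, with a log2 change of 2.26. The ratio of Itga6 to Itgb4, its hemidesmosome partner, was 0.745 ± 0.0242 with vehicle and 0.599 ± 0.00328 with palmitate, and the groups were apart. By the longest coding transcript it was above 1, at 1.38 ± 0.0448 and 1.11 ± 0.00609, so which of these partners has more message depends on the length.

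The collagen and fibronectin receptor alpha messages were also lower relative to Itgb1, with log2 changes of -0.30 for Itga2 and -0.14 for Itga5. Itga2 stood at 0.0140 ± 0.000519 of Itgb1 with vehicle and 0.0114 ± 0.000436 with palmitate, and Itga5 at 0.0650 ± 0.000498 and 0.0590 ± 0.000232 (SD, n = 3). Both were apart between groups. Itgav stood at 0.0688 ± 0.00135 of Itgb1 with vehicle and 0.0603 ± 0.00132 with palmitate. Its log2 change was -0.19 and the groups were apart. Itgav to Itgb5 was 0.568 ± 0.00471 with vehicle and 0.546 ± 0.0224 with palmitate, and the groups overlapped. Of the ratios added after seeing the data, Itgav to Itgb3 had a log2 change of 0.18 and Itgav to Itgb6 of -0.41. Both of these were apart between groups. Itgav to Itgb8 had a log2 change of -3.13, but it rests on the few Itgb8 counts of the vehicle group: without vehicle replicate 1, which had 2 counts, it was -2.53.

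**Figure D3:**
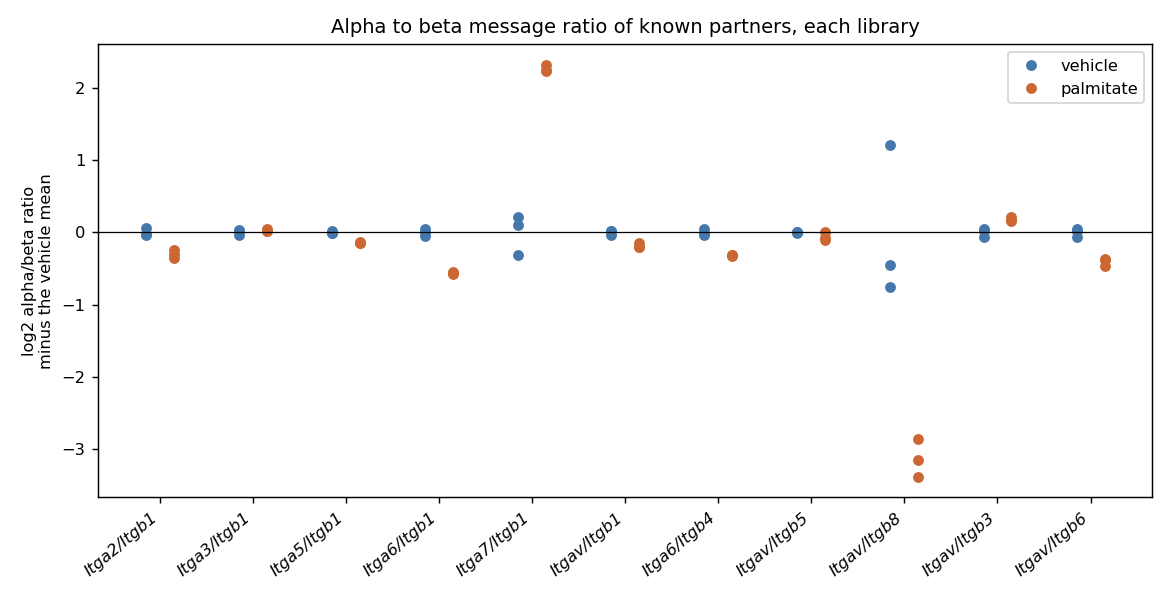
Each point is 1 library, plotted as the log2 ratio of an alpha to a beta message minus the vehicle mean of that pair. Itga7/Itgb1 lies above 0 and Itgav/Itgb8 below it in all palmitate libraries, Itga6/Itgb1 is lower by 0.56, and Itga3/Itgb1 and Itgav/Itgb5 overlap between groups.

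As a share of the 6 alpha members summed per length, Itga3 made up 69.7% ± 0.508 with vehicle and 73.9% ± 0.124 with palmitate (SD, n = 3). Itga6 made up 9.57% ± 0.448 and 6.74% ± 0.146, and Itga7 0.0627% ± 0.0119 and 0.310% ± 0.00695. By the longest coding transcript Itga3 made up 63.5% and 68.7%, Itga6 15.5% and 11.2%, and Itga7 0.0979% and 0.494%, higher or lower with palmitate as before. Among the 4 beta members, Itgb1 made up 82.4% ± 0.131 and 84.1% ± 0.257, and Itgb4 7.57% ± 0.0447 and 6.49% ± 0.0928. Itgb8 was 0.0104% ± 0.00582 of that sum with vehicle and 0.0707% ± 0.0125 with palmitate. The members with the largest folds were therefore the smallest parts of the pool.

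The other subunits of the family were not among the members, and their tests come from the fit across all genes. Of 17 listed, 10 had a row and 7 were tested: 3 rose, 2 fell and 2 did not pass (5 of 7 called, beside 52.8% of all tested genes). Of the 3 that rose, Itga1 was tested only through its palmitate counts, so nothing is read from its call. Itga4, Itga8, Itga9, Itga11, Itgad, Itgax and Itgb2l were not analysed here. Itgb3, the vitronectin receptor partner of alpha v, fell from 125 ± 2.52 to 102.6 ± 0.384 CPM (log2 fold change -0.28, SE 0.0262, edgeR adjusted p = 2.28e-16). Its libraries were 125, 123 and 128 CPM with vehicle and 102, 103 and 103 CPM with palmitate. Itgb6, an epithelial partner of alpha v that activates latent TGF-beta, rose from 27.3, 25.3 and 25.1 CPM to 31.1, 33.0 and 31.6 CPM (log2 fold change 0.30, SE 0.0490, edgeR adjusted p = 1.16e-07). Both are partners of Itgav and neither overlapped between groups.

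With these subunits included, the alpha v partners other than beta 1 had a different make-up in the groups, given as a description because Itgb5 and Itgb8 are members. Summed per length, Itgb5 was 49.5% ± 0.589 with vehicle and 51.7% ± 0.580 with palmitate, Itgb3 43.0% ± 0.739 and 38.1% ± 0.567, and Itgb6 7.39% ± 0.308 and 9.82% ± 0.217 (SD, n = 3). Itgb8 was 0.0514% ± 0.0291 and 0.392% ± 0.0664. By the longest coding transcript Itgb5 was 49.4% and 50.9%, Itgb3 40.5% and 35.4%, Itgb6 10.1% and 13.2%, and Itgb8 0.0624% and 0.470%. So even with palmitate, Itgb8 message was a small part of this set. The shares of Itgb5, Itgb6 and Itgb8 were all higher with palmitate and that of Itgb3 was lower. Their summed level was 49.2 CPM per kb with vehicle and 45.7 with palmitate, so a higher share need not mean more message.

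Itgb7, whose product pairs with alpha 4 or alpha E in leukocyte homing, fell from 34.1, 34.3 and 32.9 CPM to 15.8, 17.2 and 16.1 CPM (log2 fold change -1.04, SE 0.0530, edgeR adjusted p = 4.85e-31). Of its partners, Itgae was at 0.367 ± 0.0485 and 0.400 ± 0.157 CPM and was not tested, and Itga4 was not analysed here. Itgb2, the beta subunit of leukocyte integrins, rose from 1.96 ± 0.222 to 3.09 ± 0.461 CPM (log2 fold change 0.65, SE 0.166, edgeR adjusted p = 0.000547). Its partners Itgal and Itgam were untested for low counts, with Itgal at 0.530 ± 0.147 and 0.133 ± 0.0757 CPM (called lower with no count filter, edgeR adjusted p = 0.000484) and Itgam at 0.0329 ± 0.0287 and 0.0147 ± 0.0254 CPM. Leukocyte markers moved both ways beside these: 5 of 6 had a row, their sum was 7.19 to 9.01 CPM with vehicle and 9.58 to 10.7 CPM with palmitate, Cd68 rose from 7.14 ± 0.739 to 9.66 ± 0.622 CPM, and Ptprc fell from 0.836 ± 0.137 to 0.266 ± 0.0452 CPM. Ptprc passed the filter only through the vehicle libraries, so its fall is a description. Lyz2 was at 0 CPM in the vehicle libraries. The part of such cells in the values of Itgb2 and Itgb7 was not tested.

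Itga1, another collagen-binding partner of beta 1, was at 0.258 ± 0.0689 CPM with vehicle and 0.725 ± 0.218 CPM with palmitate, with 16 summed counts (95% exact Poisson interval 9.15 to 26.0) and 49 (36.3 to 64.8). Like Itgb8 it passed the filter only through the palmitate libraries, so these values are a description. Itga2b (log2 fold change 0.14) and Itga10 (-0.04) did not pass, at about 3 CPM in both groups.

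**Figure D4:**
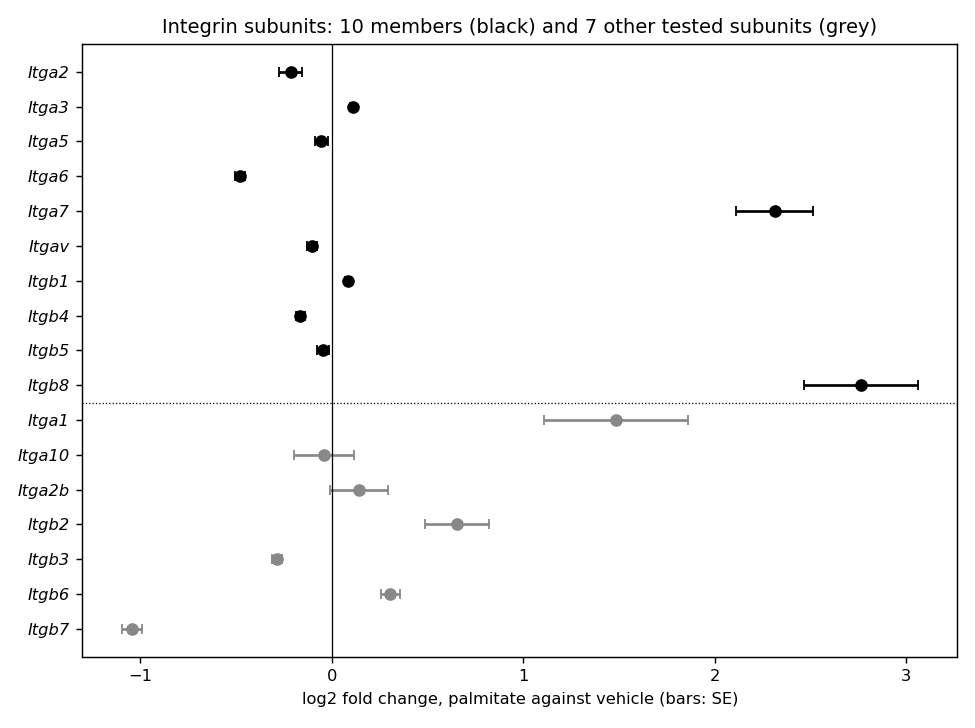
Points are log2 fold changes of palmitate against vehicle with SE, for the 10 members in black and the 7 other tested subunits in grey. Itgb8, Itga7 and Itga1 lie furthest to the right, at 2.76, 2.31 and 1.48, Itgb7 furthest to the left at -1.04, and most others within 0.5 of 0.

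Laminin genes, which are basement membrane genes, supply ligands for the receptors of Itga3, Itga6, Itga7 and Itgb4. The basement membrane list also holds collagen IV genes and other genes that are not laminins. Of 23 listed, 15 were tested: 3 rose, 7 fell and 5 did not pass, with a median log2 fold change of -0.13 beside 0.00068 over all tested genes. Called genes were 66.7% of the tested genes of this list, beside 52.8% of all tested genes, 27.4% higher and 25.4% lower. The gene lists were chosen with earlier results known, so nothing is read from such shares. The laminin chain gene Lama5 fell from 1005 ± 3.54 to 893 ± 7.83 CPM (log2 fold change -0.17, edgeR adjusted p = 2.68e-17), and Lamb3 from 205 ± 5.21 to 166 ± 0.518 CPM (-0.31, edgeR adjusted p = 5.22e-22). Another laminin chain gene, Lama3, had a log2 fold change of -0.03 and did not pass. Of chains that can join Lama5, Lamb1 (-0.33), Lamb2 (-0.13) and Lamc1 (-0.24) fell. Lamc3, also a laminin chain gene, was at 1.42 ± 0.302 and 1.85 ± 0.329 CPM and did not pass (0.36). Lamc3 and the chains that fell with Lama5 here were named after their values were seen. The call of Lamb1 was lost with DESeq2 (adjusted p = 0.0694) and without palmitate replicate 3 (edgeR adjusted p = 0.111). The heparan sulfate proteoglycan genes Agrn (-0.28) and Hspg2 (-0.20) fell as well. Collagen IV went the other way: Col4a2 rose from 174 ± 2.62 to 235 ± 5.12 CPM (0.43, edgeR adjusted p = 4.29e-32), as did Col4a1 (0.22), also named after its values were seen.

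Ligands of the fibronectin, collagen and alpha v receptors, listed with the latent TGF-beta genes, moved in both directions. Of 25 listed, 19 were tested: 9 rose, 6 fell and 4 did not pass. That is 78.9% called, beside 52.8% of all tested genes, and the median log2 fold change was 0.07. Among those called, Lrrc32 (higher) could pass the count filter only with its palmitate libraries. Ltbp2 (lower) passed only through its vehicle libraries, so nothing is read from either call. Fn1, the fibronectin gene and ligand of Itga5 and Itgav pairs, fell from 3349 ± 8.85 to 2704 ± 41.9 CPM (-0.31, edgeR adjusted p = 8.67e-35). Spp1, which encodes the Arg-Gly-Asp ligand osteopontin, rose from 573 ± 10.1 to 659 ± 24.7 CPM (0.20, edgeR adjusted p = 9.24e-13). The matrix genes Tnc (0.84) and Col6a1 (0.69) rose from low levels, and Vtn, the vitronectin gene, was under the filter, at 0.207 ± 0.113 CPM with vehicle and at 0 counts with palmitate.

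Of the cargo of alpha v beta 6 and beta 8, Tgfb3 rose from 59.4 ± 2.03 to 80.7 ± 3.68 CPM (0.44, edgeR adjusted p = 5.45e-20). Tgfb1 was at 87.4 ± 2.31 and 89.9 ± 1.77 CPM and did not pass (log2 fold change 0.04). Ltbp1, which tethers latent TGF-beta to the matrix, fell from 312 ± 2.91 to 273 ± 1.14 CPM (-0.19, edgeR adjusted p = 3.44e-15). Other Ltbp genes of like level did not fall. Ltbp3 was at 479 ± 2.41 and 479 ± 5.56 CPM and did not pass (0.0005), and Ltbp4 rose from 303 ± 4.31 to 319 ± 8.28 CPM (0.07). Ltbp3 and Ltbp4 were named after their values were seen. Beside Itgb6 and Itgb8, the genes of this set thus lay on both sides of 0.

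Inside the cell, talins and kindlins bind the beta tails and activate integrins, and further adaptors and kinases link them to actin. Of 36 listed genes 34 were tested: 11 rose, 15 fell and 8 did not pass. That is 76.5% called, beside 52.8% of all tested genes, and the median log2 fold change was -0.04. The activators Tln1, from 295 ± 3.71 to 271 ± 3.47 CPM (-0.12), and Fermt1, the epithelial kindlin gene, from 1342 ± 17.0 to 1225 ± 14.3 CPM (-0.13), fell slightly, whereas the other kindlin gene of appreciable level, Fermt2, rose from 30.6 ± 0.0770 to 36.1 ± 0.165 CPM (0.24), and was named after its values were seen. The focal adhesion kinase gene Ptk2 rose (0.17) and the vinculin gene Vcl rose from 206 ± 0.945 to 245 ± 4.80 CPM (0.25, edgeR adjusted p = 5.42e-19). The docking protein gene Nedd9 fell from 79.6 ± 1.14 to 56.0 ± 2.55 CPM (-0.51, edgeR adjusted p = 1.47e-23), and Zyx fell (-0.25). Tensins, which bind beta tails in long-lived adhesions, split: Tns1 rose from 3.77 ± 0.342 to 10.4 ± 0.506 CPM (1.46, edgeR adjusted p = 2.13e-22), whereas the far more abundant Tns2 fell from 164 ± 1.98 to 129 ± 4.20 CPM (-0.34). Ilk, the integrin-linked kinase gene, had a log2 fold change of -0.03 and did not pass.

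Hemidesmosome partners of Itga6 and Itgb4 also differed in direction. Of 8 listed, 7 were tested: 3 rose, 3 fell and 1 did not pass. That is 85.7% called, beside 52.8% of all tested genes, and the median was -0.06. The linker genes Plec, from 631 ± 8.85 to 696 ± 18.2 CPM (0.14, edgeR adjusted p = 8.33e-12), and Dst (0.07) rose while both integrin messages were lower. Cd151, a tetraspanin gene whose product binds laminin-receptor integrins, fell from 174 ± 2.09 to 154 ± 6.19 CPM (-0.18, edgeR adjusted p = 2.52e-10), and the keratin genes Krt18 (-0.42) and Krt8 (-0.24) fell. Krt14 rose (0.55) at a low level, and Col17a1 had -0.06 and did not pass.

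Among tetraspanins and genes of integrin trafficking, 17 of 18 were tested: 7 rose, 5 fell and 5 did not pass. That is 70.6% called, beside 52.8% of all tested genes, and the median was 0.05. Cd82, a tetraspanin gene known for restraining integrin-driven motility, fell from 96.8 ± 3.32 to 74.5 ± 1.44 CPM (-0.38, edgeR adjusted p = 2.04e-19). Another tetraspanin gene, Cd9, rose (0.14), and the recycling adaptor gene Rab11fip1 rose from 50.9 ± 1.52 to 64.1 ± 2.24 CPM (0.33, edgeR adjusted p = 4.41e-13). Cd47, which encodes a partner of beta 3 integrins, fell (-0.21), and Lgals3, a galectin gene, rose (0.21).

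**Figure D5:**
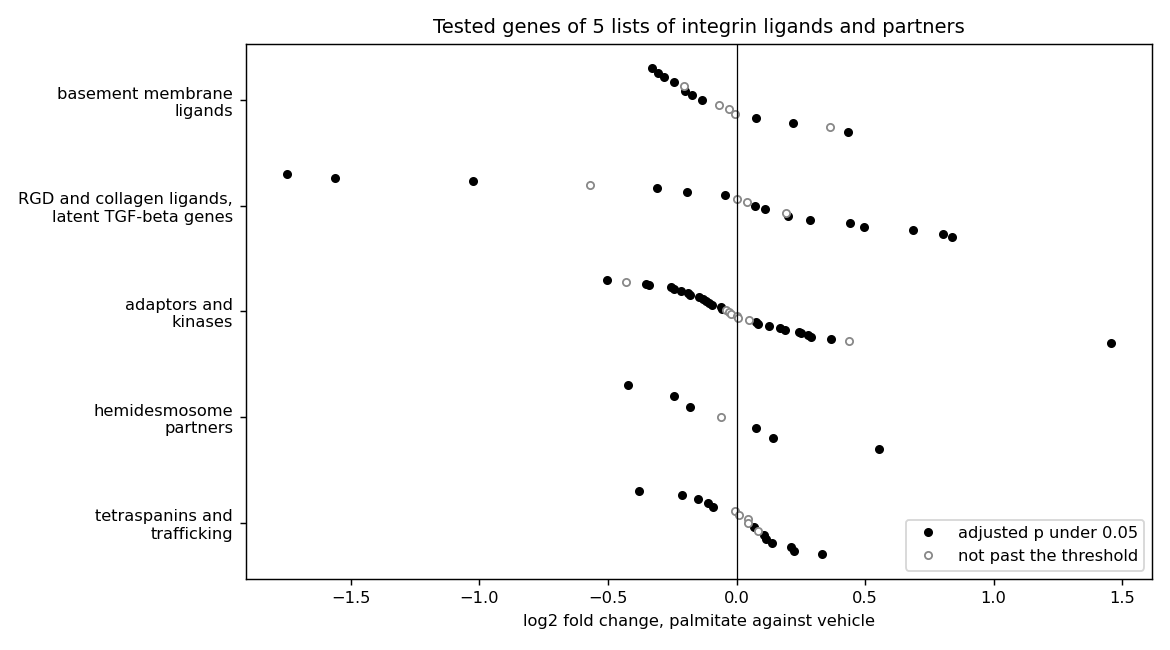
Each point is a tested gene, placed by its log2 fold change of palmitate against vehicle, filled where its edgeR adjusted p was under 0.05. All 5 lists have called genes on both sides of 0, and basement membrane ligands have 7 called genes to the left and 3 to the right. Of all tested genes, 25.4% were called lower and 27.4% higher.

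The genes whose pattern over the 6 libraries lay nearest to 3 members were found by the mean absolute difference of centred log2 CPM, among 13223 genes of at least 1 CPM. For Itgb8 these were Rassf10 (0.251) and Otop2 (0.276), and for Itga7 Artn (0.0763) and Rassf10 (0.0778). For Itga6 the nearest named gene was Zfp704 (0.0183), behind a gene that the table lists by identifier only (0.0151). These distances are descriptions of 6 libraries in 2 groups, so any gene with a like difference between the groups lies near.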

How the data were processed

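Gene counts from 6 CMT93 spheroid libraries, 3 with vehicle and 3 with palmitate, were used as the authors deposited them: raw counts per gene, unnormalised. Per the labels' protocols, libraries were stranded and from polyadenylated RNA. Per the submitters' processing notes, reads were handled with STAR 2.6.1, HTSeq, FastQC 0.11.8 and DESeq2 1.34.0, on build mm39. The authors' deposited gene table holds log2 fold changes, p-values, q-values and a score (signed −log10 of the p-value), per its column description; the score was not used further.

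Groups came from the sample titles. The count test was that of edgeR 4.0.16, run in R 4.3.3 (robust glmQLFit, glmQLFTest, two-sided) after TMM and filterByExpr (minimum count 10), with Benjamini-Hochberg adjustment over 14987 genes and a threshold of 0.05. The SE is the log2 fold change divided by the root of F. Exon lengths were merged per gene from Gencode M21, an earlier build used for lengths, overlaps and promoters only. No 2 libraries of a group were copies: chi-square per degree of freedom was 1.20 to 1.38 in the 6 pairs (genes with at least 20 summed counts). The tests were tried on simulated counts.

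The members and gene lists were chosen with earlier results of these data known. Named were all members, every other subunit with at least 1 count, in each list up to 5 called genes of smallest p with a fixed panel, and the nearest patterns; exceptions are marked, and 1 gene of the panel is not reported here. Ratios to Itgb3 and Itgb6 were added after seeing the data. Alternatives were limma-voom (limma 3.58.1), DESeq2 1.42.0, its size factors within edgeR, no count filter, a replicate block and leaving out each library; the longest coding transcript as length was added after seeing the data. At 18.9 to 22.9 M counts, genes near 1 CPM carry more counting error than abundant ones.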

Additional observations from a re-analysis of the deposited data

How the results depend on the processing

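Every member kept its sign under size factors of DESeq2, no count filter, DESeq2, limma-voom, the replicate block and without each library, with 4 members higher and 6 lower throughout. Itgb8 ranged from 2.42 to 3.13 on the log2 scale and Itga7 from 2.19 to 2.41 when 1 library was left out, and Itgb8 rests on 18 summed counts with vehicle. Itgb1 moved by more than its library spread to 0.10 with no count filter and to 0.09 without palmitate replicate 3. Among the list genes named by the rule, Itga10, which had not passed, changed sign, lying between -0.21 and 0.10 when 1 library was left out. The call of Lamb1 was lost with DESeq2 (-0.33) and without palmitate replicate 3 (-0.22), and no other call of a tested gene named by the rule was lost. Of named genes untested for low counts, Itgal was called lower with no count filter (-1.93) and, on passing the filter, without vehicle replicate 2 or any 1 palmitate library (-2.49 to -1.72), and Vtn with no count filter (-5.21). Where Itgal passed the filter it did so only through the vehicle libraries. A tested value for it there had to be a difference, so nothing is read from those calls. Over all genes 7915 calls became 7883 with size factors, 8023 with no filter, 7847 with limma-voom, 5899 with DESeq2 and 7260 to 7406 without 1 library. With the replicate number as a block 7933 genes were called, and the block changed no call of a gene named by the rule. Same-numbered libraries did not deviate together (correlations -0.0045, 0.0085 and 0.0071), and not every library correlated best with its own number, so the numbers were not taken as pairs. Normalization, filter and test do not enter the partner ratios.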
